A study of Mus musculus with 19 samples.

Results

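Of 749593 T cell receptor beta CDR3 sequences listed in any of 7 mediastinal lymph nodes, 2489 (0.332%) were listed in all 3 nodes taken after myocardial infarction (MI) and in none of the 4 taken after sham surgery. They were chosen by that presence alone, and are called MI-shared CDR3s here. The series as a whole listed 1082330 distinct CDR3s in 19 libraries. MI-shared CDR3s were 0.531% of the 469013 CDR3s of any MI node and 10.4% of the 23999 found in every MI node. Another 21510 CDR3s were in every MI node and at least 1 sham node.

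All libraries were TRB transcripts of CD4+ TCRbeta+ T cells sorted from Balb/c mice 7 days after surgery or immunization, with 500000 cells for each node library and 5000 for each heart library. MI mice had the left anterior descending coronary artery tied off, and gave both mediastinal nodes (n = 3), which drain the heart, and hearts (n = 3). Sham-operated mice had the chest opened without ligation (mediastinal nodes, n = 4), and both surgical groups received buprenorphine at 0.1 mg/kg for 72 h. Axillary nodes came from mice given 100 µg of porcine cardiac myosin (n = 2), 1 mg of mouse heart protein extract (n = 3) or adjuvant alone (n = 4) under the skin. The adjuvant was Titermax Gold in all 3 immunized groups, at 200 or 600 µl with antigen, a volume not assigned to samples, and at 200 µl alone. Heart extract is a mixture of many proteins, and the myosin was porcine. The labels do not say that each library came from its own mouse, nor that an MI node and a heart of the same number shared one, so any p-value measures the spread between these samples.

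A T cell receptor beta chain is assembled in the thymus by joining a V, a D and a J segment, with bases removed and added at the joints. The joint encodes the CDR3, the loop that lies over the antigen peptide, and short CDR3s with few added bases tend to be made again and again in different animals. Such public sequences can be shared by mice without a shared immune response, so the number of CDR3s common to a group depends on how much of each repertoire was sampled.

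The 8 MI-shared CDR3s with the highest floor, meaning the highest read share in the MI node where each was lowest, are shown with the V and J segments that held most of their MI node reads. They are printed as deposited, without the cysteine before and the phenylalanine after them.
TRBV19 with TRBJ1-1, first: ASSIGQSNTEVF
TRBV19 with TRBJ1-4: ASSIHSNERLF
TRBV14 with TRBJ2-1: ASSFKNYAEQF
TRBV14 with TRBJ2-4: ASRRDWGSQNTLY
TRBV5 with TRBJ1-4: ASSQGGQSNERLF
TRBV19 with TRBJ1-1, second: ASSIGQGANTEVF
TRBV5 with TRBJ2-3, first: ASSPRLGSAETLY
TRBV5 with TRBJ2-3, second: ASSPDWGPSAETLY

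The libraries differed in how many CDR3s they listed, although their read totals lay close together. Node libraries held 7534295 to 9235800 reads and heart libraries 2426715 to 5126910. MI nodes 1, 2 and 3 listed 200785, 230684 and 140864 distinct CDR3s, against 107650, 109097, 212131 and 52869 in sham nodes 1 to 4. Sham node 3 thus lay within the MI range, and the other 3 sham nodes lay below it.

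To ask whether the MI label marks the count, the 7 node libraries were relabelled in all 35 ways of choosing 3. The MI labels gave 2489 CDR3s present in the 3 chosen nodes and absent from the other 4. This was 4.25 times the median of the other 34 choices, which was 586 (mean 913, range 81 to 5290). Other choices nevertheless gave more. MI node 1, MI node 2 and sham node 3 shared 5290 CDR3s that no other mediastinal node listed, and MI node 2, MI node 3 and sham node 3 shared 2739. The MI choice was the third highest, with an exact one-sided permutation p of 0.0857, where the smallest p the design allows is 0.0286. The count of MI-shared CDR3s was therefore not above relabelled counts at the 0.05 threshold.

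**Figure D1:**
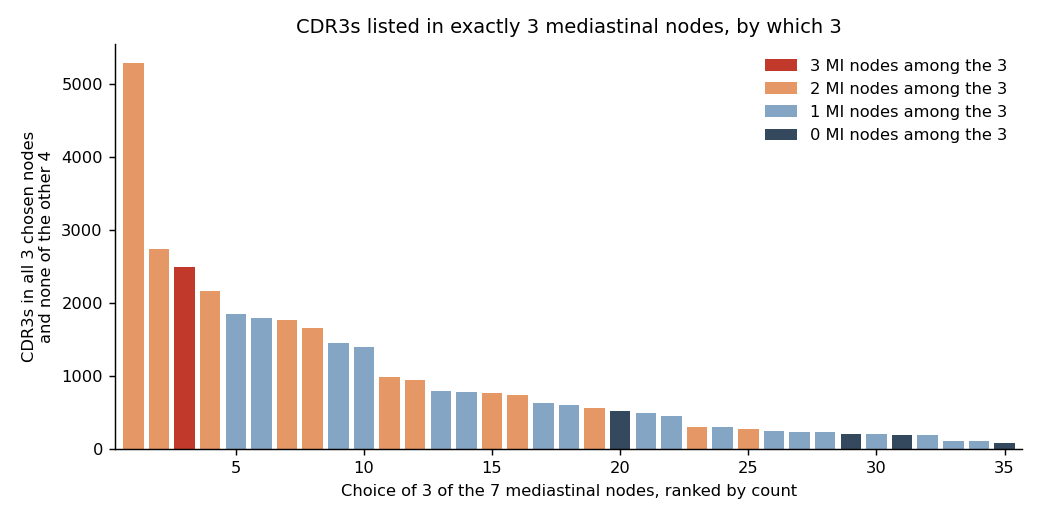
Number of CDR3s listed in all 3 chosen mediastinal nodes and none of the other 4 (vertical axis), for each of the 35 choices ranked by count (horizontal axis), coloured by how many of the 3 are MI nodes. The MI choice, with 2489, is the third bar, after choices with 5290 and 2739, both of which hold sham node 3.

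Sham node 3 and the list lengths moved with this count. Sham node 3 was in 7 of the 10 highest choices, and no choice that held sham node 4, the shortest list, exceeded 606. Without sham node 3 the MI count was 5762 and the highest of 20 choices, an exact one-sided permutation p of 0.05, the smallest that 20 choices can give. Without MI node 1, 2 or 3 in turn, the 2 remaining MI nodes shared 8720, 7598 or 13097 CDR3s that no sham node listed. Across the 35 choices, which reuse the same 7 libraries, the count followed the summed number of distinct CDR3s (Spearman rho 0.959, as a description). The MI choice was also the third by that sum, at 572333. With every list shortened to its 52869 most-read CDR3s, 521 remained MI-shared, again the third highest, against a top choice of 710 and a median of 288 over all 35. Choices with 2 MI nodes had a median of 963.5 CDR3s (274 to 5290), those with 1 a median of 473 (107 to 1856), and those with 0 a median of 200.5 (81 to 521). The mirror of the rule, every sham node and no MI node, held 60 CDR3s. The part of list length in these counts beyond the equal-list value was not tested.

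The edge of the rule was thin. In at least 1 MI node, 404 MI-shared CDR3s (16.2%) had only 2 reads, the lowest count any table lists. Just outside the rule, 267 CDR3s were in every MI node and had exactly 2 reads in a single sham node. A single sham node kept 5315 CDR3s out, namely 850, 927, 3273 and 265 for sham nodes 1 to 4. Absence from a sham node therefore means fewer than 2 reads, or removal before deposit, and not that the receptor was missing from the animal.

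Most MI-shared CDR3s were low in reads, as most CDR3s of these nodes were. Their median read counts in MI nodes 1 to 3 were 19, 19 and 31, or 2.51, 2.24 and 3.39 RPM (reads per 1000000 reads of the library). Together they held 1.23%, 1.10% and 1.91% of the reads of the 3 nodes. The medians over all CDR3s of the same nodes were 16, 15 and 25 reads. CDR3s in every MI node and also a sham node had higher medians, of 45, 49 and 59 reads, and held 27.9%, 27.5% and 32.0% of reads. MI-shared CDR3s thus lay above the typical CDR3 of their node and below the sequences found after both operations. Over all their listings in mediastinal nodes the median was 22 reads. It was 24 for CDR3s found in exactly 3 mediastinal nodes of any other choice, so MI-shared CDR3s were not above that class.

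The levels of an MI-shared CDR3 in the 3 MI nodes were often far apart. Only 256 (10.3%) stayed within 2-fold across the 3 MI nodes, in RPM, while 750 (30.1%) differed by more than 10-fold and 37 by more than 100-fold. Spearman correlations between pairs of MI nodes over the 2489 CDR3s were 0.202 to 0.240, given as a description of CDR3s that share their libraries. MI node 3 held the highest share for 1175 of them, MI node 1 for 739 and MI node 2 for 575. At least 100 reads in every MI node were reached by 16, and at least 10 reads by 1082 (43.5%).

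**Figure D2:**
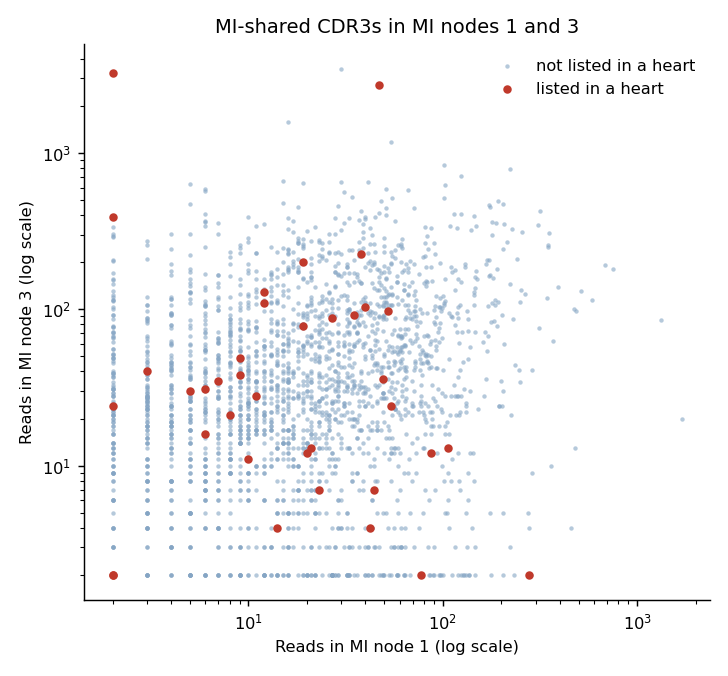
Reads of each MI-shared CDR3 in MI node 1 (horizontal axis) and MI node 3 (vertical axis), both on log scales, with the 37 CDR3s also listed in a heart in red. The points fill the plane widely, with no narrow band along the diagonal, and heart-listed CDR3s lie throughout the cloud and down to 2 reads.

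The 8 sequences printed above had the highest lowest shares, and some were steady over the nodes. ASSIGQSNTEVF had 255, 291 and 311 reads in MI nodes 1 to 3, a mean of 34.02 ± 0.302 RPM (SD, n = 3). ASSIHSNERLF had 348, 230 and 249 reads, and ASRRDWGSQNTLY had 215, 164 and 270. These 3 varied little, as the choice by lowest share favours. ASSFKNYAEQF had 221, 334 and 786 reads, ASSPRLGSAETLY 173, 119 and 466, and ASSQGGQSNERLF 188, 143 and 358. Each was highest in MI node 3. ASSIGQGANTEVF, with 119, 254 and 156 reads, was highest in MI node 2, and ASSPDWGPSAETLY had 148, 118 and 175. None of the 8 was listed in a heart.

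The 5 MI-shared CDR3s with the highest summed share were each dominated by a single node. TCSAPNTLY, a TRBV1 sequence, had 30, 33 and 3429 reads in MI nodes 1 to 3, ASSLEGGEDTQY had 2, 76 and 3228, and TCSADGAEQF had 47, 4 and 2727. All 3 were dominated by MI node 3. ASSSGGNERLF had 1698, 109 and 20 reads, and a TRBV16 CDR3 of 13 residues had 1323, 87 and 85, both dominated by MI node 1. In each of these 5, a large count in 1 MI node went with far fewer reads in the others, as the choice by summed share favours. The TRBV16 CDR3 was led by TRBV19 in MI node 2 and by TRBV5 in MI node 3.

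V and J segments encode either end of the CDR3. Each CDR3 was counted once, by the segment with most of its reads in the mediastinal nodes, which for MI-shared CDR3s are the MI nodes. The comparison class is the 31056 CDR3s found in exactly 3 mediastinal nodes of any other choice (other-trio CDR3s), which are as public within these 7 libraries. The values describe chosen sequences and were not tested. All 22 TRBV and 11 TRBJ names of the tables matched segments of the RefSeq annotation of GRCm38.p6.

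TRBV5 led with 18.1% of the MI-shared CDR3s, against 16.3% of the other-trio CDR3s, the largest difference among V segments. TRBV31 followed with 9.32%, against 7.79%. Lower shares were found for TRBV13-1 (7.03%, against 7.86%), TRBV14 (5.14%, against 5.88%) and TRBV1 (7.55%, against 8.21%). TRBV19, the Vβ6 segment, made up 15.7% and 15.2%. Every one of these differences was under 2 percentage points. The TRBV13 family, the former Vβ8 segments, held 20.6% of MI-shared and 22.4% of other-trio CDR3s. TRBV26, TRBV12-1, TRBV12-2, TRBV16 and TRBV15, which this strain loses to superantigens of mouse mammary tumor virus, together held 42 MI-shared CDR3s (1.69%, against 1.82%). Weighted by MI node reads instead, TRBV19 led the MI-shared CDR3s with 23.8% and TRBV5 had 21.1%. TRBV14 had 12.4% of those reads, TRBV31 4.05% and TRBV13-2 4.38%, where TRBV13-2 made up 10.5% of the CDR3s.

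Among J segments, TRBJ2-7 was the most used, with 13.3% of MI-shared and 15.4% of other-trio CDR3s. TRBJ1-3 made up 8.96% and 7.15%, TRBJ2-4 7.96% and 9.32%, TRBJ1-2 5.75% and 5.05%, and TRBJ1-4 11.4% and 10.7%. The TRBJ1 cluster, which lies upstream with its own D segment, was used by 39.5% of MI-shared CDR3s, against 35.97% of other-trio CDR3s. The like-sized choice of MI node 2, MI node 3 and sham node 3, picked for comparison after its count was known, stood between them at 37.9%.

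**Figure D3:**
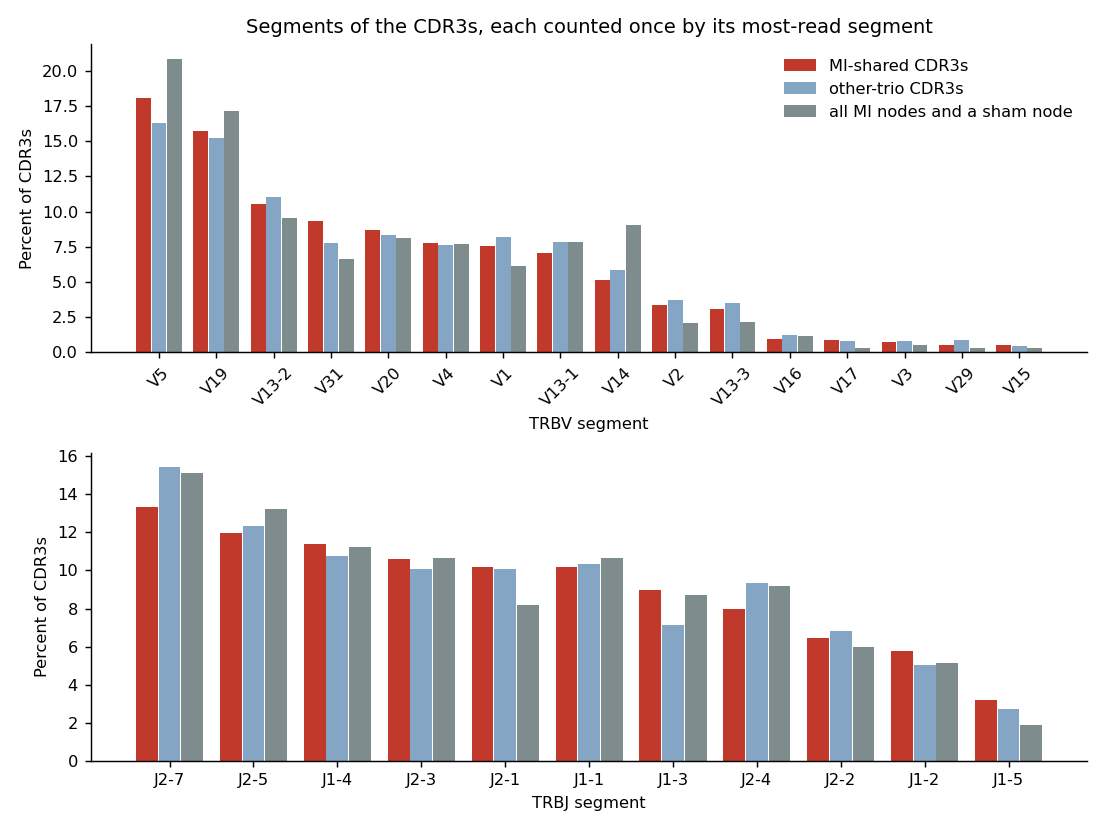
Percent of CDR3s (vertical axes) by TRBV segment (top, segments with at least 0.4% of MI-shared CDR3s) and TRBJ segment (bottom), for MI-shared CDR3s, other-trio CDR3s and CDR3s of every MI node plus a sham node. The red and blue bars of a segment differ by at most 2.09 percentage points, and TRBV5 and TRBJ2-7 lead in both.

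The same CDR3 was often read with different V segments in different MI nodes. The leading J segment was the same in all 3 MI nodes for 2462 MI-shared CDR3s (98.9%), while the leading V segment was the same for 1287 (51.7%). The other-trio CDR3s gave 98.6% and 51.1% in their own 3 nodes. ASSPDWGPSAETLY, for example, was led by TRBV19 in MI node 1, TRBV2 in MI node 2 and TRBV5 in MI node 3. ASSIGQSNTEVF was read only with TRBV19 in each. When V and J had to match as well, 2788 combinations of CDR3, V and J met the rule.

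The lengths of MI-shared and other-trio CDR3s lay close together. MI-shared CDR3s averaged 11.87 ± 1.31 residues (SD over 2489 CDR3s, range 5 to 15), and other-trio CDR3s 11.86 ± 1.28. CDR3s of every MI node plus a sham node were shorter, at 11.65 ± 1.20, and those of any MI node longer, at 12.25 ± 1.46. Lengths of 14 residues or more made up 8.32% of MI-shared CDR3s, 8.16% of other-trio CDR3s, 4.38% of those with a sham node and 18.1% of those of any MI node. Length thus went with the number of nodes that listed a sequence. Mean net charge was -0.654 in MI-shared and -0.638 in other-trio CDR3s, and glycines per CDR3 were 1.499 and 1.509.

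**Figure D4:**
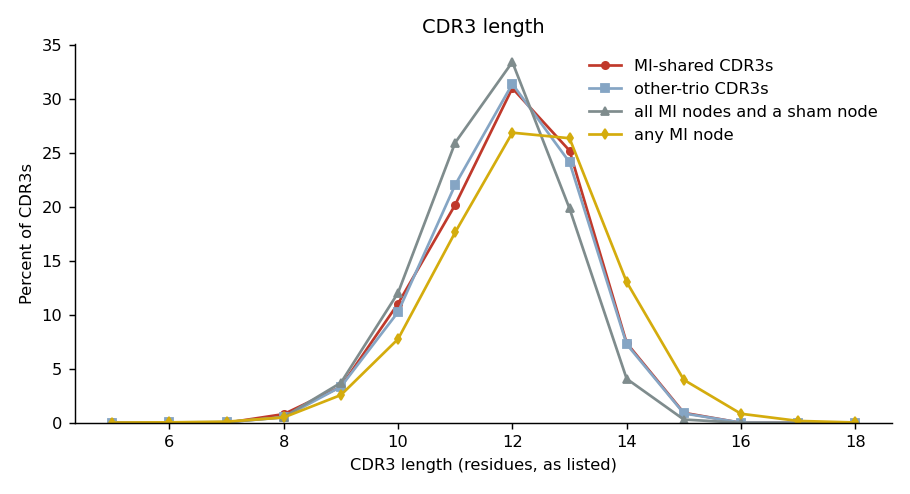
Percent of CDR3s (vertical axis) at each length in residues (horizontal axis) for MI-shared CDR3s, other-trio CDR3s, CDR3s of every MI node plus a sham node, and CDR3s of any MI node. The MI-shared and other-trio curves nearly coincide, with means of 11.87 and 11.86 residues.

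Some MI-shared CDR3s resembled each other. T cells that see the same peptide sometimes do so, but whether these CDR3s share a peptide was not tested. A single-residue substitution linked 464 of them (18.6%) to another MI-shared CDR3, in 213 families of at most 5. The like-sized choice of MI node 2, MI node 3 and sham node 3 had 571 linked CDR3s (20.8%) in 263 families of at most 6. The largest MI-shared family is printed to show how near its members lie, in lower case with capitals where a residue differs from the form given first, a base taken for display only, since G and V are equally common among the 5 at the fifth residue. All 5 used TRBJ2-3, and 3 were led by TRBV5.
TRBV5, base form: assqgggrgaetly
TRBV5, 1 difference: assqVggrgaetly
TRBV2, 1 difference: assqTggrgaetly
TRBV5, 2 differences: assqVggrAaetly
TRBV13-1, 1 difference: assDgggrgaetly

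In MI nodes 1 to 3 the base form, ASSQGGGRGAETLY, had 31, 30 and 68 reads, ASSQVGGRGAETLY had 35, 113 and 18, and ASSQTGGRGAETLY had 6, 32 and 106. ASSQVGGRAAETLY had 47, 19 and 33 reads and the TRBV13-1 form had 25, 2 and 3. No form led in all 3 nodes. For 342 MI-shared CDR3s (13.7%), at least 1 MI node also listed a single-substitution neighbour with 100 or more times the reads, and for 5 this held in all 3 nodes. Whether such CDR3s are sequencing errors of the neighbour was not tested.

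The heart libraries asked whether MI-shared sequences reach the infarcted tissue. At least 1 heart listed 37 of them, or 1.49% (95% Wilson interval 1.08% to 2.04%), against 1.02% of other-trio CDR3s (0.912% to 1.14%). With MI node 3 left out of the rule, the value was 0.764%, against 0.668% of CDR3s in exactly 2 remaining nodes of another choice. With MI node 1 left out these were 0.986% and 0.755%, and with MI node 2 left out 1.00% and 0.773%. Heart 1 listed 10 (0.402%), heart 2 listed 10 (0.402%) and heart 3 listed 18 (0.723%), against 0.267%, 0.361% and 0.402% of other-trio CDR3s. The point values were higher for MI-shared CDR3s in each heart, but the intervals overlapped in each. These intervals cover counting error only. Split by the number of MI nodes in the trio, other-trio CDR3s were in a heart for 1.03% with 2 MI nodes, 0.994% with 1 and 1.10% with 0. CDR3s of every MI node plus a sham node were in a heart more often, at 3.25%.

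**Figure D5:**
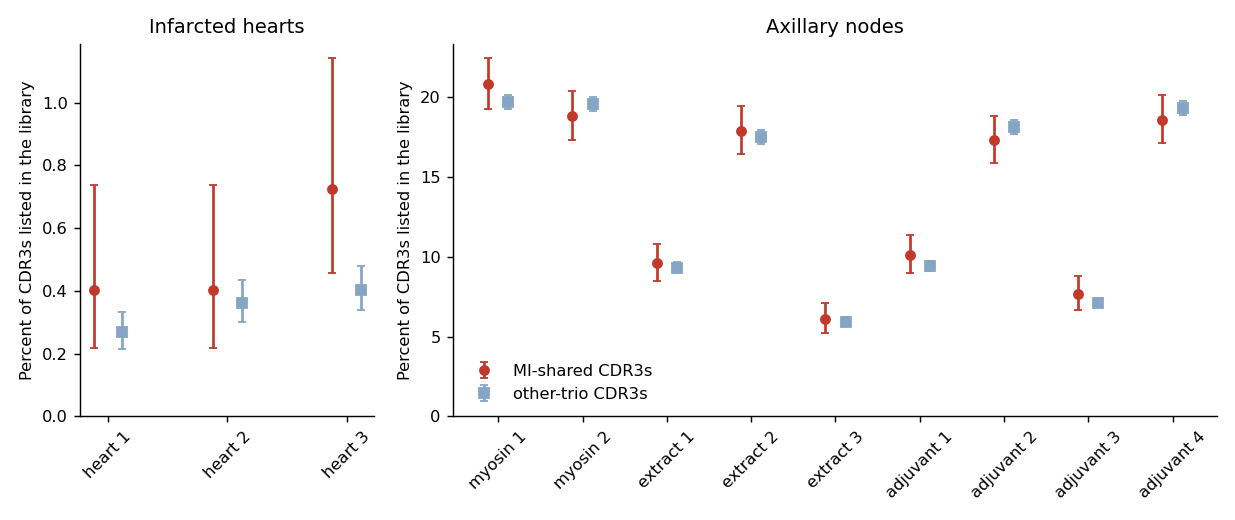
Percent of MI-shared CDR3s and other-trio CDR3s (vertical axes) that each heart (left) and each axillary node (right) listed, with 95% Wilson intervals as bars. In all 3 hearts the MI-shared point is the higher and the intervals overlap, and in the axillary nodes the points of a library lie close together while libraries range from 6.11% to 20.9% for MI-shared CDR3s.

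In heart reads the 37 ranged from 2 to 49477. At least 1000 heart reads were reached by 13, and fewer than 50 by 21. Of all CDR3s of hearts 1 to 3, 10.8%, 10.6% and 11.5% had at least 1000 reads, and 83.6%, 83.0% and 82.0% fewer than 50. The median was 33.5, 16.5 and 36 reads for MI-shared CDR3s, against 6 over all CDR3s of each heart. Together the MI-shared CDR3s held 0.809%, 0.399% and 1.57% of the reads of hearts 1 to 3. The 83, 112 and 125 other-trio CDR3s of these hearts held 5.45%, 9.81% and 6.01%, and their median reads were not compared. Whether the higher medians are particular to MI-shared CDR3s was not tested. The largest MI-shared CDR3 was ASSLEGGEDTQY with TRBV14, at 49477 reads or 0.965% of heart 3 (Wilson interval 0.957% to 0.974%). Among the nodes, TRBV14 led this CDR3 only in MI node 3. TRBV3 led it in MI node 1 and TRBV16 in MI node 2. The only one listed in more than 1 heart was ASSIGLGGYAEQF with TRBV19, with 12478 reads in heart 1 (0.514% of that library) but 2 reads in heart 3. In MI nodes 1 to 3 it had 19, 74 and 202 reads. None was in all 3 hearts, which allows a share of up to 0.154% of the 2489 (the upper Wilson bound). No other-trio CDR3 was in all 3 hearts either.

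The other MI-shared CDR3s with large heart counts were each in 1 heart and modest in the nodes. They are named because of their heart reads. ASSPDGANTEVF had 13234 reads in heart 2 and 52, 4 and 97 in MI nodes 1 to 3, and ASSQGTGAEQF had 10983 in heart 3 and 23, 9 and 7 in the nodes. A TRBV1 CDR3 of 12 residues had 4811 in heart 1 and 6, 75 and 31 in the nodes. None of these was large in a node. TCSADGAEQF, in contrast, had 4462 reads in heart 3 and 2727 in MI node 3. Of the 18 in heart 3, 11 had their highest node share in MI node 3, but of the 10 in heart 1 only 2 had theirs in MI node 1, and of the 10 in heart 2 only 3 in MI node 2. In at least 1 MI node, 7 of the 37 (18.9%) had only 2 reads, near the 16.2% of all MI-shared CDR3s.

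The leading J segment in the heart was that of the nodes for all 37, and the leading V segment for 21. The node segment here is the one leading over the MI nodes together, so a match in a single node is not counted. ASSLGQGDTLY, with 4979 reads in heart 3, was led by TRBV15 there and by TRBV2 over the MI nodes together. In MI node 3 it was led by TRBV15 as well. Counted by CDR3, V and J together, 0.968% of MI-shared receptors were in a heart (0.666% to 1.41%), against 0.681% of the other-trio ones. TRBV19 led 10 of the 37 over the MI nodes, where it led 15.7% of all MI-shared CDR3s, and 5 of the 37 in the heart.

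The axillary nodes asked whether immunization with heart antigens lists the same sequences. Myosin nodes listed 20.9% and 18.8% of the MI-shared CDR3s, and heart extract nodes 9.60%, 17.9% and 6.11%. The adjuvant nodes listed 10.1%, 17.3%, 7.67% and 18.6%. The antigen mean was 14.7% ± 6.43 (SD, n = 5) and the adjuvant mean 13.4% ± 5.35 (n = 4), so the difference was smaller than the spread within either. Other-trio CDR3s were listed at almost the same rates, and the ratio of MI-shared to other-trio percentages was 0.962 to 1.06 in antigen nodes and 0.953 to 1.08 in adjuvant nodes. With every axillary list shortened to 38437 CDR3s, the percentages were 8.46 ± 1.55 after antigen and 8.56 ± 1.13 after adjuvant.

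Counted over nodes, 632 MI-shared CDR3s (25.4%, against 24.8% of other-trio CDR3s) were in an antigen node and no adjuvant node. Conversely, 398 (15.99%, against 16.6%) were in an adjuvant node and no antigen node, 615 were in both, and 844 (33.9%, against 33.7%) were in none. More antigen than adjuvant libraries were sampled, 5 against 4. No MI-shared CDR3 was in all 5 antigen nodes without an adjuvant node, where 3 other-trio CDR3s were (0.00966%). None was in all 9, where 1 other-trio CDR3 was (0.00322%). At such shares, 0 of 2489 does not set the MI-shared CDR3s apart. Among the 37 heart-listed CDR3s, 16 were in an antigen node and no adjuvant node, 4 in adjuvant nodes only, 10 in both and 7 in neither. As a share of all MI-shared CDR3s the 16 were 0.643% (0.396% to 1.04%), against 0.248% of other-trio CDR3s (0.198% to 0.310%) that were in a heart and an antigen node without an adjuvant node. This contrast was picked out after its values were seen and was not tested.

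Closest to an antigen pattern were 3 sequences, each in 4 antigen nodes and no adjuvant node. At least 3 antigen nodes and no adjuvant node listed 1.49% of MI-shared and 1.45% of other-trio CDR3s. At least 3 adjuvant nodes and no antigen node listed 0.522% and 0.341%. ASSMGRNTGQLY with TRBV19 had 220 and 26 reads in the myosin nodes and 477, 107 and 0 in the heart extract nodes. GASTTNSDYT with TRBV20 had 2 and 94 reads in the myosin nodes and 71, 29 and 0 in the heart extract nodes, and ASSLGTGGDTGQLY with TRBV5 had 401 and 54, then 2, 69 and 0. Heart extract node 3, the shortest axillary list, lacked all 3. Their unadjusted p values in the fit of all CDR3s were 0.026, 0.0333 and 0.0367, and by edgeR each had an adjusted p of 0.433. Under DESeq2, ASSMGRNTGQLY had an adjusted p of 0.0138 and GASTTNSDYT one of 0.0601, and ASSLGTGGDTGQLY was given none. Over the edgeR alternatives the adjusted p of all 3 ran from 0.257 to 1. These 3 were named for presence in antigen nodes without adjuvant, and they entered the fit through antigen nodes alone. Their p values therefore support no pattern. The broadest sequences, named after their values were seen, were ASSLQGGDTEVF in 8 axillary nodes and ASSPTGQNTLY and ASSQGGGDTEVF in 7 each. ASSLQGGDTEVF had 60 and 252 reads in myosin nodes, 0, 144 and 28 in heart extract nodes, and 776, 856, 169 and 300 in adjuvant nodes.

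In a fit of read counts in the 9 axillary libraries, 34175 CDR3s were tested, and 390 MI-shared CDR3s were among them. The other 2099 were in too few libraries or had too few reads. By edgeR's quasi-likelihood test with Benjamini-Hochberg adjustment, 0 MI-shared CDR3s passed for both antigens against adjuvant, and 0% of all CDR3s tested did. The same held for myosin and for heart extract alone. At an unadjusted p under 0.05, both antigens against adjuvant gave 54 MI-shared CDR3s (13.8%, against 11.2% of all tested). Of these, 30 were higher after antigen and 24 lower, where 5.43% and 5.73% of all tested were. Myosin gave 28 (7.18%, against 5.09%), 26 higher and 2 lower, where 4.95% and 0.138% of all tested were. Heart extract gave 31 (7.95%, against 7.41%), 27 higher and 4 lower, where 5.02% and 2.4% of all tested were. The balance of directions depended on the tool and, for both antigens and heart extract, on edgeR's settings. At an unadjusted p under 0.05 DESeq2 gave 14 higher and 48 lower for both antigens, 12 and 35 for myosin, and 11 and 51 for heart extract. Without its legacy settings edgeR gave 29 and 37 for both antigens, 29 and 6 for myosin, and 30 and 41 for heart extract. Fitted on all 16 node libraries it gave 34 and 48, 34 and 6, and 31 and 64 in the same order. DESeq2 called 27 MI-shared CDR3s for both antigens, 20 for myosin and 10 for heart extract, where it called 5.02%, 3.51% and 3.27% of all CDR3s. A CDR3 enters this fit only through libraries that list it, so these shares describe the fit and support no pattern.

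The measured log2 ratio of mean read share was taken with any group mean below 3 reads in each library raised to that floor. For both antigens over adjuvant its median was 0.28 for the 390 and 0.14 for all tested. It was -0.13 and 0.01 for myosin and -0.19 and -0.36 for heart extract. Fitted edgeR log2 fold changes had medians of -1.23 and -0.952 for both antigens, so that sign depended on the measure. The 5 MI-shared CDR3s with the smallest p were all at 0 reads in every antigen node and had reads in 3 of 4 adjuvant nodes. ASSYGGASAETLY had 0, 2910, 351 and 149 reads in adjuvant nodes 1 to 4, which is at least 262-fold lower after antigen (unadjusted p 0.00157). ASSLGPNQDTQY had 1456, 0, 2 and 220 reads, at least 145-fold lower after antigen. Each of these rests mostly on 1 adjuvant library. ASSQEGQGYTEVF had 437, 194, 0 and 271 reads, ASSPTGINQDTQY 0, 158, 260 and 299, and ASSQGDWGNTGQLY 0, 106, 303 and 177, at least 74.6-fold, 57.4-fold and 47.2-fold lower after antigen. All 5 had an edgeR adjusted p of 0.433. They were named for their small p on this contrast and entered the fit through adjuvant nodes alone. Their folds and p values therefore support no pattern.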

How the data were processed

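Each deposited table lists, for 1 library, a read count for every combination of CDR3 amino acid sequence, TRBV and TRBJ segment. The counts are the authors' whole numbers, not normalized, and per the file contents none is under 2. Per the labels' protocols, TRB transcripts were amplified by multiplex PCR and sequenced on an Illumina HiSeq. For the software and the segment reference, nothing is given in the sources used here. Without molecular identifiers, PCR reads are not independent molecules, and 95% Wilson intervals cover counting error only. The 19 library totals ran from 2426715 to 9235800 reads.

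Counts were summed per CDR3. MI-shared CDR3s are those listed in all 3 MI nodes and no sham node, and their number was compared with all 35 choices of 3 of 7 nodes by an exact one-sided permutation test. The members and lists were chosen with earlier results of these data known. Axillary counts were tested with edgeR 4.0.16 in R 4.3.3 (quasi-likelihood, robust, legacy settings, library total as offset). CDR3s listed in at least 3 of 9 libraries with at least 20 reads entered, with Benjamini-Hochberg adjustment over all tested. The fit was also run on simulated counts with a single fixed spread, so that run does not measure its error rate on these data. DESeq2 1.42.0 was an alternative, as were TMM factors, a looser filter, higher listing thresholds, drawing reads to equal totals, equal list lengths, V and J as part of the identity, and leaving out each library. CDR3s were named by rule: the 8 with the highest lowest share and the 5 with the highest summed share in MI nodes, those in 2 hearts, those in all or the most antigen nodes without adjuvant, those in all 9 axillary nodes, the largest family, and the 5 with the smallest p. Names added after values were seen are marked in the text.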

Additional observations from a re-analysis of the deposited data

Results flagged for a closer look

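The RPM of each named MI-shared CDR3 in the 4 adjuvant nodes, and list lengths and overall shares in the adjuvant or sham nodes, were searched for a library standing apart, by whether the gap from the highest or lowest value to its nearest neighbour exceeded Dixon's 95% critical value as a share of the whole range. Of 29 such sets of 4 values, 13 were singled out, all of them CDR3s in adjuvant nodes, where chance singles out about 1 set in 20 if values spread normally. Read counts that are mostly 0 do not, and 7 of the 13 were listed in a single adjuvant node, which this measure always singles out. In RPM, the outstanding values were 329 for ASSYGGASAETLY and 189 for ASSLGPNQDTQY, both among the 5 CDR3s with the smallest p between antigen and adjuvant nodes. They were 85.6 for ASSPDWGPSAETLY, 67.3 for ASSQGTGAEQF, 59.9 for the TRBV16 CDR3 with 1323 reads in MI node 1 and 59.5 for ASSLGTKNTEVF, the last of which was named for having the most single-substitution neighbours. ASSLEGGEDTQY stood out at 12.1, the TRBV13-1 form of the largest family at 10.1, and the TRBV1 CDR3 with 4811 reads in heart 1 at 6.33. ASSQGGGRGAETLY stood out at 3.51, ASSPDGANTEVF at 0.908, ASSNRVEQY at 0.259 and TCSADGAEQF at 0.238, the last 2 being 2 reads each in their library.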

How the results depend on the processing

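The count of 2489 became 1082 when 10 reads were required in every MI node, 1598 when 10 reads were required for a listing in any node, and 521 with equal list lengths. The MI choice was the third highest of 35 in each. Leaving out 1 library in turn gave counts of 2754 to 13097 and exact one-sided permutation p values of 0.05 to 0.2. From 0.764% to 1.79% were in a heart. CDR3s in as many nodes of another choice gave 0.668% and 1.34% in those runs. With equal lists 2.30% were in a heart, against 1.94% of other-trio CDR3s, and with V and J in the identity 0.968%. TRBV5 was 21.1% over MI node reads and 15.8% with V and J in the identity, TRBV19 23.8% and 9.83%, and TRBJ2-7 11.6% over reads. DESeq2 called 1714 CDR3s and 27 MI-shared ones for both antigens, 1199 and 20 for myosin, and 1118 and 10 for heart extract, where edgeR called 0 under every setting and without each axillary library. Same-numbered axillary libraries correlated at -0.0108 to 0.0158 and differently numbered ones at -0.0135 to 0.0108. The 2 myosin libraries mirror each other in this measure, so it cannot decide whether sample numbers pair the libraries. With a replicate block edgeR called 0, and 68 CDR3s (1 MI-shared) had an unadjusted p under 0.05 for both antigens. The 5 CDR3s with the smallest p passed under DESeq2, as did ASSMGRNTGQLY. Each of these had entered the fit through adjuvant nodes alone or antigen nodes alone, so this supports no pattern. Among the named CDR3s, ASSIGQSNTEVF also passed under DESeq2 as lower after antigen (adjusted p 0.000103), where edgeR gave an adjusted p of 0.433. It had 344 reads in myosin node 1, 653 in adjuvant node 2, 190 in adjuvant node 4 and 0 in the other axillary nodes. Another 173 recomputed values moved by less than the spread, stayed within 1.5 times a main count or stayed on the same side of the threshold. With equal axillary lists the antigen mean of 14.7% became 8.46% and the adjuvant mean of 13.4% became 8.56%, so antigen minus adjuvant changed sign within the spread. Unequal list lengths and the floor of 2 reads limit what absence from a sham node can show.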
